A study of Homo sapiens with 8 samples.

Results

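LOC transcripts are gene models that RefSeq lists under the letters LOC and a gene number because no approved symbol had been assigned to them. In the gene body and transcription start site (TSS) tables of this PRO-seq experiment, 1620 of 23193 rows carried such a symbol. After LOC143666, LOC105370526 and LOC100506272 were set aside, 1617 remained. Of these, 872 exceeded 0.5 CPM (reads scaled to the total of the library's table) in at least 2 libraries of either table and are described here, which is 5.01% of the 17404 rows of any kind that did so. The gene body passed this filter for 795 of the 872 and the TSS region for 696, with 619 passing both, 176 the body only and 77 the TSS only. The filter was passed in all 8 libraries by 614 of the 795 bodies, and 4 of the 795 passed it through both libraries of a single group. These 4 do not include bodies that passed only through several groups, such as both groups of a single genotype. A further 208 LOC rows had no read in either table.

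Libraries came from HCT116, an established human colorectal carcinoma cell line, either wild type (WT) or with HIF1A disrupted at exons 3 and 4 by virus-mediated homologous recombination (HIF1A-/-). Cells stayed in normoxia or were moved to 1% O2 for 90 min (hypoxia), with DMSO as vehicle in every culture, which gave 4 groups of 2 libraries from independently prepared nuclei. The HIF1A-/- cells are a single derived line, so any difference between the lines that does not come from HIF1A cannot be told apart from the genotype. Gene body reads numbered 18125234 to 23622392 per library and TSS reads 2783581 to 5966348, and the LOC transcripts held 1.06% to 1.41% of the former and 2.52% to 3.03% of the latter.

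HIF1A, the targeted gene, had gene body CPM of 134 and 150 in normoxic and 129 and 164 in hypoxic WT cells, against 157 and 141 in normoxic and 172 and 166 in hypoxic HIF1A-/- cells. The disruption leaves the HIF1A start site in place, so these nascent reads do not check the genotype labels. The epithelial genes EPCAM, CDH1, KRT8, KRT18 and KRT19 were transcribed in every library, the intestinal gene GPA33 was low at 2.36 to 10.5 CPM, and the intestinal genes VIL1 and CDX1 and the blood cell genes PTPRC and CD3E were at or near 0. The fibroblast gene COL1A1 had 19.0 to 50.3 CPM, above GPA33 in every library. COL3A1 (fibroblast) and CDH5 (endothelium) reached 2.07 and 1.65 CPM, and PECAM1 (endothelium) and ALB (liver) reached 0.197 and 0.247 CPM.

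In PRO-seq, nuclei are given labelled nucleotides for a short run-on, and only polymerases already engaged on DNA incorporate them, so a read marks an active polymerase rather than a stable transcript. Most LOC transcripts are long non-coding RNAs, which commonly arise on the opposite strand from a gene's own promoter, inside genes in antisense, or past gene ends, and many are degraded soon after synthesis, which makes nascent RNA a sensitive way to see them. HIF1A is the oxygen-regulated subunit of the HIF1 transcription factor. It is destroyed when oxygen is plentiful, accumulates in hypoxia and binds short motifs built on ACGTG or GCGTG near genes of glycolysis, angiogenesis and iron handling.

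The RefSeq gene table held 853 of the 872 gene numbers. It called 765 of them long non-coding RNA, 67 transcribed pseudogene, 20 protein coding and 1 antisense RNA. It gave 531 of them another symbol, of which 111 were LINC names, 129 were divergent transcripts (DT) and 192 were antisense RNAs (AS). The remaining 322 still had the same LOC symbol. Gene bodies ran from 535 to 1374317 bp with a median of 12504.5 bp, against 23677 bp for all rows passing the filter.

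Promoter sequences are given for 4 of them because the hypoxia comparisons turn on their transcription. They are those with the smallest p among the bodies higher in WT hypoxia that the gene table held. Each runs 5′ to 3′ on the transcript's strand in GRCh37, the build of the tables, from 250 bases before the annotated start to 50 bases after it. Capitals mark every ACGTG or GCGTG, searched on both strands, so that matches on the other strand read CACGT or CACGC and 1 CACGTG counts as a match on each strand.
LOC284930 (EPIC1), chr22:48027172-48027471, + strand: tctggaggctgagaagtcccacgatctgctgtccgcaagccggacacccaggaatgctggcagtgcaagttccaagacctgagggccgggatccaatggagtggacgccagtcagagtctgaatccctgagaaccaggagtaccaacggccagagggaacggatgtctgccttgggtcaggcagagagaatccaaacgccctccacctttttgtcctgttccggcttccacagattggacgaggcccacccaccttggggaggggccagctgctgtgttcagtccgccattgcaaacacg
LOC285626 (IL12B-AS1), chr5:158758275-158758574, + strand: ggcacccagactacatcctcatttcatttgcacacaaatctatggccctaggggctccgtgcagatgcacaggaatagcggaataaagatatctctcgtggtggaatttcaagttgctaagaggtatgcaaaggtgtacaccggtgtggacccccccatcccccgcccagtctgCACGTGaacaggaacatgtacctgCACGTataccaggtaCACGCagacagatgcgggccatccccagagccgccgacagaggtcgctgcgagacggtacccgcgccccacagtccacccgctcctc
LOC284241 (CTDP1-DT), chr18:77439696-77439995, - strand: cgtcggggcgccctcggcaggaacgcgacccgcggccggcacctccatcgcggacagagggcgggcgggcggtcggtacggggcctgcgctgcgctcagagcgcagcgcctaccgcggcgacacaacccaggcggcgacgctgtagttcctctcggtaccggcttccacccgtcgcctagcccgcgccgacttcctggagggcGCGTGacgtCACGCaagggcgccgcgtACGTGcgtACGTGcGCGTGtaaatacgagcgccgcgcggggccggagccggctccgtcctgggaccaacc
LOC101929705 (SCIRT), chr6:44042340-44042639, - strand: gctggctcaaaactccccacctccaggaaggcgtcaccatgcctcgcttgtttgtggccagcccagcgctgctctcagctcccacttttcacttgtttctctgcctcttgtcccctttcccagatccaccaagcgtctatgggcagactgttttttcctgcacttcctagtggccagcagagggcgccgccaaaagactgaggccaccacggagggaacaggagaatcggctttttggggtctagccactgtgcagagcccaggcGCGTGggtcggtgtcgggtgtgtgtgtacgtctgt

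These windows held 0, 4, 5 and 1 matches in the order listed. Over all LOC transcripts, 51.6% of the windows held at least 1 match, against 53.0% of the windows of all 23193 rows. ACGTG was present in 20.8% and 22.5% of them, respectively, and GCGTG in 39.2% and 41.1%. Over the 17404 rows that passed the filter in either table, the shares were higher, at 57.8% for either motif, 24.1% for ACGTG and 45.8% for GCGTG. A match is a description of letters and not of binding.

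LOC transcripts lay closer to other genes than rows in general, and their position went with their level. Head-to-head transcripts, whose start lay within 1000 bp of the start of a gene on the opposite strand, numbered 289 (33.1%, against 19.2% of all rows), and in 200 of them the pair pointed away from each other. Each row was counted only in the first class that applied, in the order given here. In a further 121 (13.9%, against 3.86%) the start lay inside a gene on the other strand (antisense). In a further 72 (8.26%, against 15.2%) it lay within 10000 bp past the end of a gene on the same strand (downstream). The antisense and downstream shares therefore leave out transcripts already placed in an earlier class. The remaining 390 (44.7%, against 61.8%) had none of these neighbours. Bodies of 35 of the 872 overlapped another row on their own strand, where reads cannot be assigned to either.

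Gene body density was low. Its median in WT normoxia was 0.414 RPKM (CPM divided by body length in kb) over the 795 tested bodies, against 1.29 over all 16686. It was 0.785 for head-to-head, 0.679 for downstream, 0.304 for antisense and 0.217 for other LOC transcripts, as in the plot of density and pausing by position. The LOC body with the highest density was LOC101927974 (CBLL1-AS1) at 35.2 RPKM in WT normoxia, which overlaps head-to-head with CBLL1, a gene for a ubiquitin ligase, with 885 bp between the starts. LOC100506548, which starts 2185 bp past the end of the ribosomal protein gene RPL37, followed at 34.4 RPKM. LOC100505771 (MHENCR), head-to-head with GMEB2 at 133 bp, had 27.0 RPKM. LOC101928796 and LOC642361 had 20.9 and 20.5 RPKM over short bodies of 984 and 701 bp. The top 5 ranks were thus held by short bodies, the longest of them 2881 bp.

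The pausing index divides TSS density by gene body density, each in CPM per base. Its median over the 619 LOC transcripts passing both tables was 41.5 in WT normoxia, and 47.8 over the 14494 rows that did so. By position it was 91.9 for head-to-head LOC transcripts (all rows 63.2), 28.6 for others (47.8), 13.4 for downstream (35.9) and 11.3 for antisense (22.8). The order of these 4 medians was the same in the means of all 4 groups, while in the single library WT hypoxia replicate 2 the antisense median (9.09) lay above the downstream median (8.64). Per library, the median over LOC transcripts lay between 36.5 and 45.6. Both WT hypoxia libraries (37.5 and 36.5) lay below both WT normoxia libraries (43.7 and 38.4), as they did over all rows. The HIF1A-/- groups overlapped for LOC transcripts, whereas over all rows hypoxia (44.9 and 44.4) lay below normoxia (46.1 and 45.8). These medians were not tested. Because the TSS and body tables were each scaled to their own total, the level of the index depends on that choice, and with a common total the library medians lay between 5.48 and 9.39. The order of the WT groups then did not hold, with LOC medians of 9.39 and 9.22 in hypoxic and 9.36 and 8.07 in normoxic WT libraries. Over all rows it turned, with 11.5 and 11.5 in hypoxia against 10.5 and 9.76. The HIF1A-/- groups over all rows then overlapped, at 6.66 and 9.36 in hypoxia and 5.83 and 9.29 in normoxia.

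**Figure D1:**
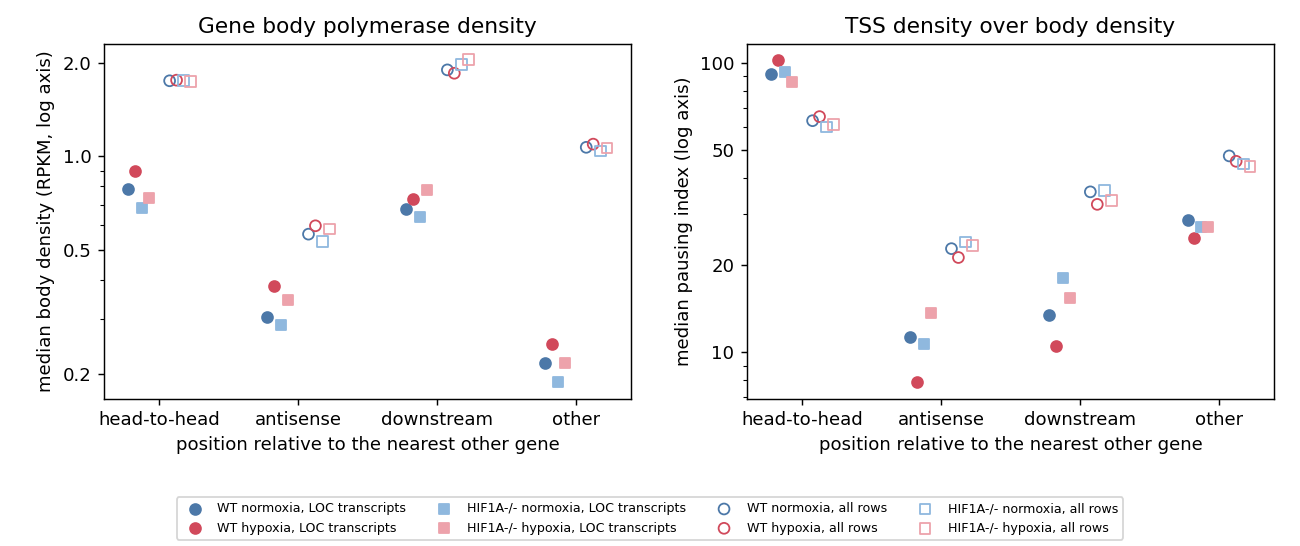
Median gene body density in RPKM (left, log axis) and median pausing index (right, log axis) by position class, with filled symbols for LOC transcripts, open symbols for all rows passing the filter, circles for WT and squares for HIF1A-/- cells, each point a median over transcripts of group means of 2 libraries. In WT normoxia, head-to-head LOC transcripts had a median index of 91.9 against 63.2 for all head-to-head rows, while the other 3 classes had a lower index than all rows, and the density of LOC transcripts was below that of all rows in every class.

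The highest pausing indices belonged to long, sparsely transcribed bodies with an active start. LOC100996255 (LINC02256) had an index of 9068 in WT normoxia, with 105 and 155 CPM at the TSS and a body density of 0.026 RPKM. LOC100506207 followed at 5163 and starts 55 bp from SLC35B3, which encodes a transporter of the sulfate donor PAPS. Its body overlaps the row of HULC on its own strand, so reads there may belong to either. LOC105378828 (CLCA4-AS1) had 4688 and starts 76 bp from SH3GLB1, which encodes endophilin B1. At the other end, LOC101927267 (TROAP-AS1), LOC105376554 (LINC02547) and LOC340512 had no TSS read in WT normoxia, although the body of TROAP-AS1 had 71.8 and 79.6 CPM. For these, the annotated start region held no read while the body did.

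In WT cells, the hypoxia changes of LOC bodies lay above 0 more often than those of all bodies, and few passed the test on their own. The median log2 fold change of the 795 bodies was 0.197, and 69.7% were above 0, against -0.02 and 47.5% over all 16686 bodies. In both replicates hypoxia exceeded every normoxia value for 185 LOC bodies (23.3%, against a background of 19.8% of all bodies), and in both it fell below every normoxia value for 53 (6.67%, against 17.3%). LOC transcripts took a larger share of reads in replicate 2 than in replicate 1 of every group, and the median depended on which numbers were compared. It was 0.396 without WT normoxia replicate 2, 0.355 without WT hypoxia replicate 1, 0.0415 without WT normoxia replicate 1 and 0.0197, with 53.1% above 0, without WT hypoxia replicate 2. Within replicate numbers it was 0.193 for pair 1 and 0.180 for pair 2 on the log2(CPM + 0.5) scale, against 0.033 and -0.004 for all bodies.

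Level moved with this shift. When all tested bodies were sorted by mean RPKM and cut into 4 equal bins, 371 of the 795 LOC bodies (46.7%) fell in the lowest bin. In WT cells the medians from the lowest to the highest bin were 0.30, 0.15, 0.15 and 0.05 for LOC bodies, and 0.21, 0.00, -0.07 and -0.11 for all other bodies. LOC bodies thus had the higher median in each of the 4 bins, and both sets had their highest median in the lowest bin. The medians in WT cells were 0.240 for 420 bodies with LINC names and 0.181 for 585 with AS names. The part that low counts play in the shift was not tested. LOC bodies had a median of 101 reads per library, and 37.5% had under 50, against 571 reads and 15.1% for all bodies.

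**Figure D2:**
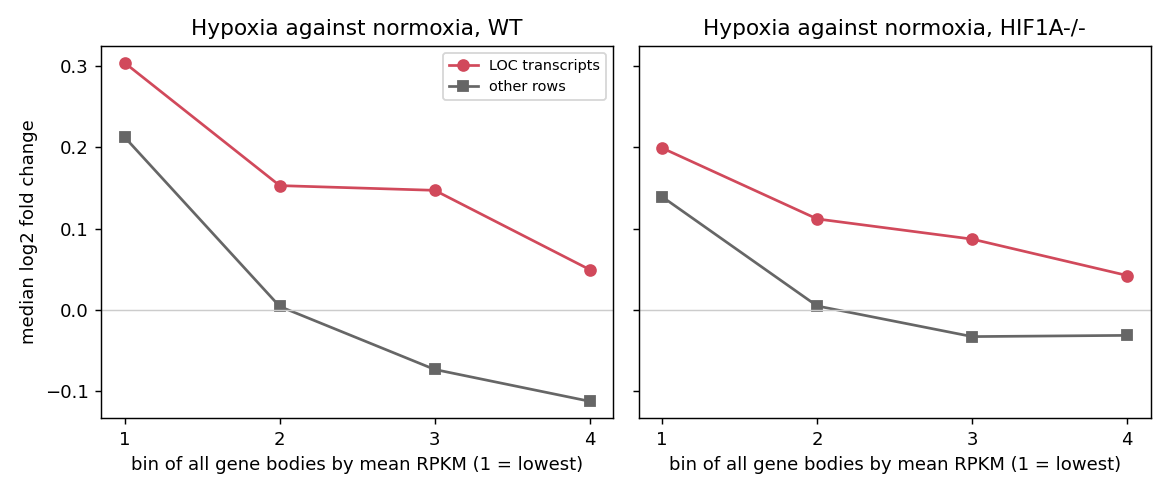
Median log2 fold change of gene bodies, hypoxia over normoxia, in WT (left) and HIF1A-/- cells (right), by bin of mean RPKM over all 16686 tested bodies, with circles for 795 LOC transcripts and squares for all other rows. LOC medians run from 0.30 in the lowest to 0.05 in the highest WT bin and stand above those of the other rows in every bin of both panels.

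In the edgeR fit without a replicate block, 1 of 795 LOC bodies was called higher in WT hypoxia at a false discovery rate (FDR) of 10% and none lower, where the background over all bodies was 0.431% higher and 0% lower. At an unadjusted p under 0.05, 32 were higher and 2 lower (4.03% and 0.252%, against 3.51% and 1.10% of all bodies). Same-numbered libraries deviated together, and with the replicate number as a block the fit called 37 LOC bodies higher (4.65%) and 1 lower (0.126%), against backgrounds of 3.73% and 1.77%. The share called higher was therefore close to that of all bodies. Whether the lower share of decreases differed from the background was not tested. DESeq2 without the block called 6 higher and 1 lower (0.755% and 0.126%, against 1.04% and 0.00599% of all bodies).

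The body called without the block was LOC554223, a transcript without an entry in the gene table that starts on chromosome 6 inside the pseudogene HCG4, 1168 bp from its start and on the other strand. It held 4 and 2 reads in WT normoxia and 41 and 86 in WT hypoxia, or 0.193, 0.110, 2.16 and 3.64 CPM. Its HIF1A-/- libraries lay in between, at 1.05 and 0.615 CPM in normoxia and 1.87 and 1.04 CPM in hypoxia. The log2 fold change in WT was 4.15 ± 0.66 SE (adjusted p = 0.0734, blocked 0.0137), where the fitted value depends on the prior count added to so few reads. The ratio of summed reads, scaled to the library totals, was 19.3, with a 95% counting interval of 8.62 to 53.5. With so few normoxia reads the call was lost when any of the 4 WT libraries was left out, where adjusted p ran from 0.130 to 0.688.

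LOC284930 (EPIC1) was the most deeply counted of the high-ranking transcripts. EPIC1 is a long non-coding RNA described in tumours as an interactor of the MYC protein. Its gene body CPM was 105 and 90.1 in normoxic and 169 and 189 in hypoxic WT cells, against 131 and 119 in normoxic and 116 and 111 in hypoxic HIF1A-/- cells. Both WT hypoxia libraries exceeded the other 6. The change was 0.84 ± 0.15 in WT (adjusted p = 0.112, blocked 0.00844) and -0.18 in HIF1A-/- cells (adjusted p = 1). Its promoter window held no ACGTG or GCGTG. Its head-to-head partner LINC00898, whose start lies 104 bp away, rose from a mean of 2.01 to 5.09 CPM in WT (log2 fold change 1.31, adjusted p = 0.897, blocked 0.0514).

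LOC339685 is the nearest row upstream of EPIC1 on its strand, with a gap of 258131 bp between them. Its CPM was 1.55 and 2.43 in WT normoxia and 4.48 and 6.14 in WT hypoxia, and 1.59 and 2.22 against 3.74 and 5.28 in the HIF1A-/- libraries. Hypoxia libraries exceeded normoxia libraries in both lines. The log2 fold changes were 1.39 ± 0.36 in WT (adjusted p = 0.510, blocked 0.0188) and 1.20 ± 0.36 in HIF1A-/- cells (adjusted p = 1).

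LOC101929705 is SCIRT, a non-coding RNA named as a stem cell inhibitory transcript in breast tumour cells. Its body had 38.8 and 46.0 CPM in normoxic and 93.7 and 127 in hypoxic WT cells, against 21.4 and 41.2 in normoxic and 29.3 and 47.4 in hypoxic HIF1A-/- cells. The WT groups did not overlap and the HIF1A-/- groups did. The WT change was 1.35 ± 0.31 (adjusted p = 0.308, blocked 0.0027). The TSS region moved alike, from 6.76 and 12.1 to 21.2 and 26.5 CPM (log2 fold change 1.38, adjusted p = 0.922, blocked 0.0230). SCIRT starts 302668 bp from VEGFA, the angiogenic growth factor gene, whose own body change was 1.21 (adjusted p = 0.020).

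LOC285626 (IL12B-AS1), which is named for the cytokine gene IL12B and whose window held the 4 matches printed above, had 5.94 and 7.67 CPM in WT normoxia and 13.8 and 21.0 in WT hypoxia. In HIF1A-/- cells it had 5.00 and 5.68 CPM before and 7.67 and 8.68 after hypoxia, and the groups were apart in both lines. The changes were 1.33 ± 0.26 in WT (adjusted p = 0.155, blocked 0.0110) and 0.57 in HIF1A-/- cells. LOC284241 (CTDP1-DT), with 5 matches, had 43.2 and 48.2 CPM in WT normoxia and 66.7 and 87.0 in WT hypoxia, and between 44.0 and 55.0 in the 4 HIF1A-/- libraries. Its WT change was 0.72 ± 0.16 (adjusted p = 0.291, blocked 0.0194).

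LOC100507156 (LOXL2-AS1) starts inside LOXL2, a gene for a collagen cross-linking lysyl oxidase, on its other strand. It had 3.62 and 4.74 CPM in normoxic and 9.95 and 11.9 in hypoxic WT cells, against 2.09 and 3.93 in normoxic and 5.07 and 5.13 in hypoxic HIF1A-/- cells. Its change in WT was 1.36 ± 0.32 (adjusted p = 0.342, blocked 0.0233), and the sense gene LOXL2 rose beside it from a mean of 49.0 to 95.2 CPM (0.93, adjusted p = 0.399, blocked 0.0275). LOC154761, a transcribed pseudogene on chromosome 7, had 0.0966 and 0.221 CPM in WT normoxia and 0.790 and 1.14 in WT hypoxia (2.56 ± 0.69, adjusted p = 0.552, blocked 0.0560). It passed the filter only through the WT hypoxia libraries, so a difference there was built in.

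**Figure D3:**
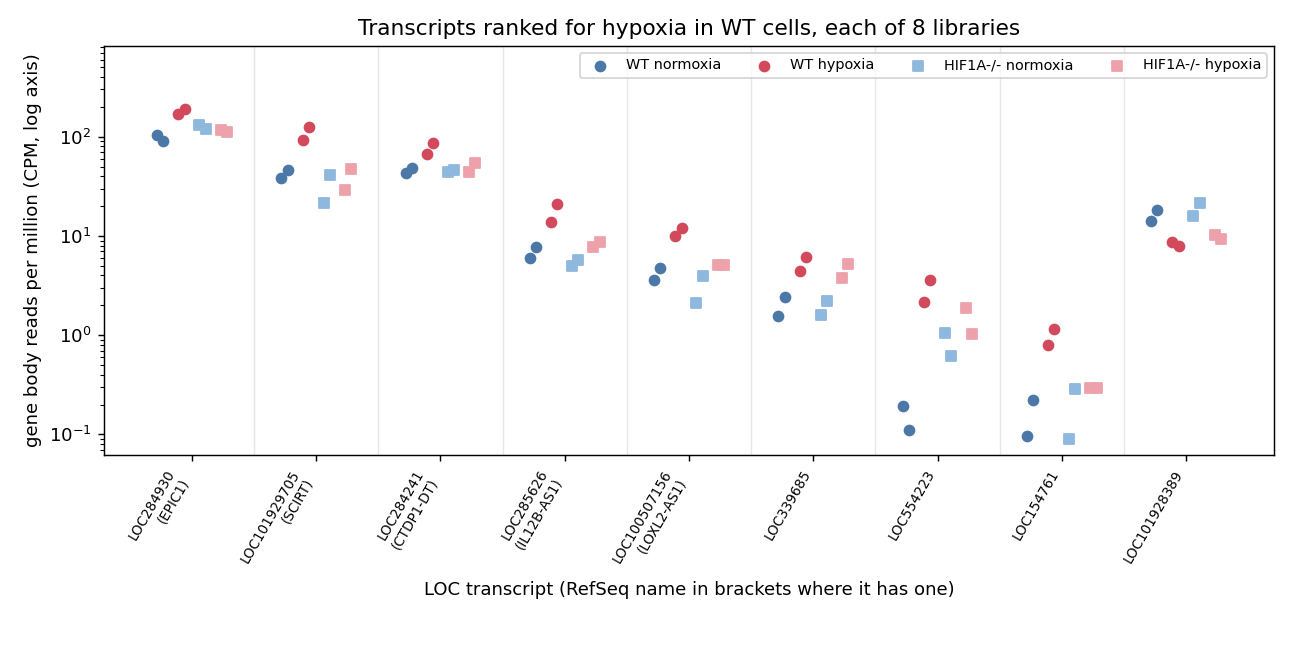
Gene body CPM (log axis) of 9 LOC transcripts ranked highest or lowest for hypoxia in WT cells, with each of the 8 libraries as a point, circles for WT and squares for HIF1A-/- cells, and replicate 1 left of replicate 2. The WT hypoxia points stand above the WT normoxia points for the 8 transcripts to the left, from 169 and 189 CPM for LOC284930 down to 0.790 and 1.14 CPM for LOC154761, and below them for LOC101928389.

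The remaining bodies called higher only with the block are illustrated by a few that were named after their values were seen. LOC105376360 rose from 9.76 and 20.5 to 24.0 and 42.3 CPM (1.11, blocked adjusted p = 0.0108), with replicate 2 above replicate 1 in each group. LOC101928617 (BTG1-DT) rose from 2.37 and 3.81 to 5.16 and 11 CPM (1.36, blocked 0.0193), beside its head-to-head partner BTG1, an antiproliferative gene (1.11, blocked 0.0187). LOC100506606 (FAR2-AS1) rose from 3.91 and 6.23 to 7.74 and 19.3 CPM (1.39, blocked 0.0424). LOC102723838 rose from 1.64 and 3.14 to 5.95 and 9.61 CPM (1.68, blocked 0.00977). The change of the 37 ran from 0.35, for LOC100288798 (SLC38A4-AS1), to 4.15.

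The body with the lowest p for a decrease in WT hypoxia was LOC101928389 on the X chromosome. Its CPM was 14.0 and 18.3 in normoxic and 8.63 and 7.87 in hypoxic WT cells, against 16 and 21.5 in normoxic and 10.1 and 9.27 in hypoxic HIF1A-/- cells, so every hypoxia library lay below every normoxia library of both lines. The changes were -1.0 ± 0.22 (adjusted p = 0.277, blocked 0.0425) and -0.98 ± 0.22 (adjusted p = 1, blocked 0.181). The next 4 passed no fit reported here. They were LOC653712 (IFT122P3, -0.53), LOC101927854 (THRB-AS2, antisense to the thyroid hormone receptor gene THRB, -1.02), LOC105370697 (-0.65) and LOC106660606 (MIR3677HG, head-to-head with the splicing factor gene RNPS1, -0.41), all with an adjusted p of 0.897.

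By position, the bodies called higher with the block comprised 12 of 270 head-to-head, 5 of 109 antisense, 2 of 69 downstream and 18 of 347 other bodies (4.44%, 4.59%, 2.90% and 5.19%). Over all rows the shares of these classes were 3.27%, 4.43%, 3.19% and 3.97%. Over 260 head-to-head pairs in which both bodies were tested, the changes of transcript and partner in WT hypoxia had a Pearson r of 0.367 and a Spearman rho of 0.352, and 142 pairs (54.6%) had the same sign. For 61 downstream pairs r was 0.586 and rho 0.610, and for 99 antisense pairs 0.024 and -0.008. Each pair shares its libraries, and these values describe pairs within a single experiment. The partner had the denser body in 171 of the 260 head-to-head pairs.

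The HIF targets listed for this work (50 genes, of which 49 were in the tables) had few LOC neighbours. Only LOC102723582 (WDR5B-DT) lay next to one, starting 6091 bp past the end of FAM162A on the same strand. Within 500 kb of a listed start lay 23 tested LOC bodies, of which 19 were above 0 in WT hypoxia, with a median of 0.37. With the block 3 (13.0%) were called. They were SCIRT, LOC105376360 at 214086 bp from the phosphofructokinase gene PFKP, and LOC100268168 at 370135 bp from STC2. Of the 772 farther away, 535 were above 0, with a median of 0.193 and 34 called (4.40%). The window was chosen after values had been seen, and no test was made of it. Bodies of other kinds near the listed genes were not summarised, so these values do not show a trait of LOC transcripts.

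In HIF1A-/- cells no LOC body passed an FDR of 10% in either direction, without or with the block. The background over all bodies was 0% higher and 0% lower without the block, and 0.03% higher and 0.00599% lower with it. At an unadjusted p under 0.05, 16 were higher and 4 lower (2.01% and 0.503%, against 1.05% and 1.03% of all bodies). DESeq2 called no LOC body, and 2 higher and 6 lower of all 16686. The median log2 fold change was 0.119, with 67.8% above 0, against 0.001 and 50.2% over all bodies. In both replicates hypoxia exceeded every normoxia value for 163 LOC bodies (20.5%, against 14.4% of all bodies) and in both it fell below every normoxia value for 33 (4.15%, against 9.15%). Within replicate numbers the median was 0.159 for pair 1 and 0.114 for pair 2, against 0.046 and 0.029 for all bodies. It was 0.311 without HIF1A-/- normoxia replicate 2 and 0.261 without HIF1A-/- hypoxia replicate 1, and lay below 0 without HIF1A-/- normoxia replicate 1 (-0.0261) or HIF1A-/- hypoxia replicate 2 (-0.0325).

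The highest-ranking increases in HIF1A-/- cells were LOC283140 (LINC02762), LOC105371998 and LOC339685. LINC02762 had 33.1 and 48.9 CPM in normoxic and 57.5 and 77.3 in hypoxic HIF1A-/- cells, and 54.1, 67.1, 81.1 and 94.3 CPM in the WT libraries in the same order. Its changes were 0.68 ± 0.20 in HIF1A-/- (adjusted p = 1, blocked 0.114) and 0.50 ± 0.20 in WT cells (adjusted p = 0.897, blocked 0.0416). LOC105371998, which starts 535 bp past the end of PRELID3A, had 15.9 and 19.2 CPM against 25.0 and 26.6 (0.52 ± 0.15, adjusted p = 1). Below LOC101928389, already described, the decreases were led by LOC101928865 (LINC02728, 10.4 and 8.14 against 5.56 and 3.70 CPM, -1.04) and LOC101927087 (LINC02516, 2.23 and 5.20 against 1.03 and 1.87 CPM, -1.38), both with an adjusted p of 1.

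The 37 bodies called higher in WT with the block tended to move the same way in HIF1A-/- cells, but less. Their median change was 0.72 in WT and 0.30 in HIF1A-/- cells, where 33 of 37 were above 0 and 35 of 37 were smaller than in WT. Of the 623 bodies of all kinds called likewise, 503 were above 0 in HIF1A-/- cells, with a median of 0.20, and 593 were smaller. The bodies were chosen for being high in WT, so a smaller value elsewhere is partly built in. Across all 795 LOC bodies the changes in the 2 lines had r = 0.25 and rho = 0.30, against 0.43 and 0.46 over all bodies.

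**Figure D4:**
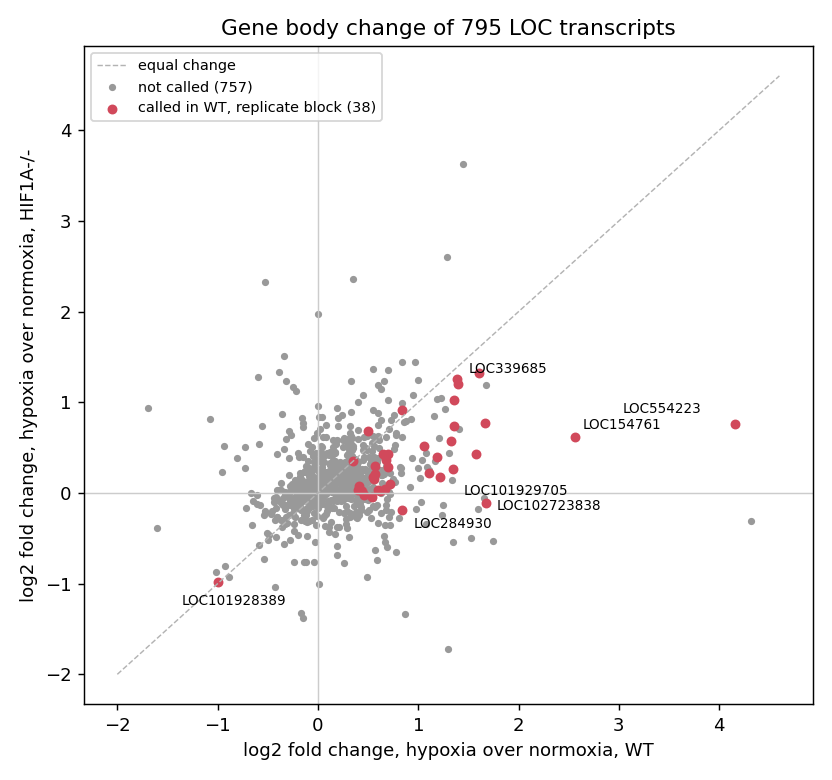
Log2 fold change of 795 LOC gene bodies, hypoxia over normoxia, in WT (horizontal) and HIF1A-/- cells (vertical), with the 38 bodies called in WT with the replicate block in red and the dashed line where both changes are equal. Most red points lie below that line and above 0 on the vertical axis, whereas LOC339685 and LOC101928389 lie close to the line and LOC284930 lies below 0.

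Tested directly, the difference between the WT and HIF1A-/- responses passed for no LOC body without the block in either direction (background 0.0539% larger in WT and 0% smaller), with 6 larger and 1 smaller at an unadjusted p under 0.05 (0.755% and 0.126%, against 1.26% and 0.102% of all bodies). With the block 1 LOC body passed as larger in WT and none as smaller (background 0.384% and 0%). It was EPIC1, with a difference of 1.02 ± 0.21 (adjusted p = 0.548, blocked 0.0522), and DESeq2 also called it (adjusted p = 0.0139), as 1 LOC body among 68 bodies of all kinds. The next in rank were LOC554223 (3.39), CTDP1-DT (0.62), SCIRT (1.09, blocked adjusted p = 0.147) and LOC102723838 (1.79), none of which passed.

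Differences with the smaller WT response passed no fit either. LOC100129434, antisense to CCDC85A, had 0.676 and 0.883 CPM in normoxic and 0.527 and 0.677 in hypoxic WT cells, against 0.318 and 0.568 in normoxic and 0.836 and 1.48 in hypoxic HIF1A-/- cells, a difference of -1.73. For LOC729737, the HIF1A-/- libraries went from 2.82 and 2.79 to 4.97 and 4.0 CPM while the WT libraries lay between 2.33 and 2.81 (-0.91). LOC101927901 (LINC02421) had a difference of -1.88 at no more than 1.48 CPM in any library.

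Among LOC bodies and among all bodies alike, more were called between the lines than between hypoxia and normoxia. In normoxia, 5 of 795 LOC bodies were called higher in HIF1A-/- than in WT cells and 3 lower. These were 0.629% and 0.377%, where the background was 0.725% and 1.05%. With the block 22 were higher and 66 lower (2.77% and 8.30%, background 3.93% and 6.39%). In hypoxia the fit called 9 higher and 21 lower (1.13% and 2.64%, background 1.47% and 2.79%). With the block it called 51 and 169 (background 13.1% and 15.1%). In the last case these were 6.42% and 21.3% of LOC bodies, and whether the split differed from the background was not tested. The lower share was 21.4% for bodies with LINC names and 20.9% for those with AS names. From the lowest to the highest bin of mean RPKM it was 22.4%, 23.2%, 18.9% and 16.5% for LOC bodies. For all other bodies it was 21.2%, 20.7%, 10.2% and 7.67%. The median log2 difference of LOC bodies was -0.09 in normoxia and -0.16 in hypoxia, against -0.01 and 0.00 over all bodies. It was -0.11 and -0.20 for LINC names, and -0.06 and -0.14 for AS names. Single libraries moved the LOC median. In normoxia it lay above 0 without HIF1A-/- normoxia replicate 1 (0.0343) or WT normoxia replicate 2 (0.0323), and was -0.261 without HIF1A-/- normoxia replicate 2 and -0.198 without WT normoxia replicate 1. In hypoxia it was -0.0142 without WT hypoxia replicate 2, -0.0642 without HIF1A-/- hypoxia replicate 1, -0.292 without WT hypoxia replicate 1 and -0.331 without HIF1A-/- hypoxia replicate 2. Within replicate numbers it was -0.123 for number 1 and -0.0668 for number 2 in normoxia, and -0.157 and -0.121 in hypoxia. The comparison in normoxia shares its WT libraries with that of WT hypoxia against normoxia, so the values of both are given side by side and not related to each other.

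LOC101928336 (LINC03098), on the X chromosome, had the smallest p among LOC bodies. It had 24.9 and 16.1 CPM in normoxic and 22.7 and 20.2 in hypoxic WT cells, against 352 and 513 in normoxic and 374 and 457 in hypoxic HIF1A-/- cells. The lines were far apart, while normoxia and hypoxia libraries overlapped within each. The difference was 4.38 ± 0.26 in normoxia (adjusted p = 0.000471) and 4.26 ± 0.26 in hypoxia (adjusted p = 0.000523). Its TSS region was nearly empty, with no library above 0.359 CPM. The nearest row upstream on its own strand was PGRMC1, with a gap of 47062 bp. Among 12 other bodies within 500 kb, LONRF3, PGRMC1, SEPT6 and SOWAHD were also called higher in HIF1A-/- cells, and the median difference of the 12 was 0.47. The part of these neighbours in its reads was not tested.

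LOC340512 on chromosome 9 had 1.40 and 3.92 CPM in normoxic and 2.21 and 4.74 in hypoxic WT cells, against 42.3 and 68.6 in normoxic and 54.9 and 74.3 in hypoxic HIF1A-/- cells. The difference in normoxia was 4.39 ± 0.50 (adjusted p = 0.00679), and none of the 4 other bodies within 500 kb was called. LOC339260 on chromosome 17 had 0.145, 0.607, 0.474 and 0.804 CPM in the WT libraries and 5.05, 8.89, 9.89 and 12.2 in the HIF1A-/- libraries, normoxia before hypoxia (4.22 ± 0.57, adjusted p = 0.0161). Its neighbours CCDC144NL and CCDC144NL-AS1 were called too.

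LOC90768 (TENM3-AS1) had no read in any of the 4 WT libraries. It passed the filter only through HIF1A-/- libraries, so a difference between the lines was built in. HIF1A-/- cells had 1.05 and 1.51 CPM in normoxia and 2.41 and 2.71 in hypoxia, which is at least 8.24-fold and at least 18.0-fold higher, taking 3 reads in each WT library as the floor (adjusted p = 0.0323 and 0.0114). The normoxia call was lost without either WT normoxia library (adjusted p = 0.149 and 0.162). The single other tested body within 500 kb, TENM3, which encodes a teneurin cell adhesion protein, was called higher as well, by 5.53 on the log2 scale. LOC107001062 had 2.61, 4.08, 3.26 and 4.40 CPM in WT and 9.05, 9.36, 11.1 and 13.2 in HIF1A-/- libraries (1.46 ± 0.28, adjusted p = 0.0623), a call lost without any library but WT hypoxia replicate 2 (adjusted p = 0.106 to 0.366). The sixth in rank, LOC442028, passed in hypoxia (2.87 ± 0.55, adjusted p = 0.0401, lost at 0.116 to 0.159 without either HIF1A-/- hypoxia library or WT hypoxia replicate 1) and not in normoxia without the block (2.55 ± 0.57, adjusted p = 0.107, blocked 0.00782).

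**Figure D5:**
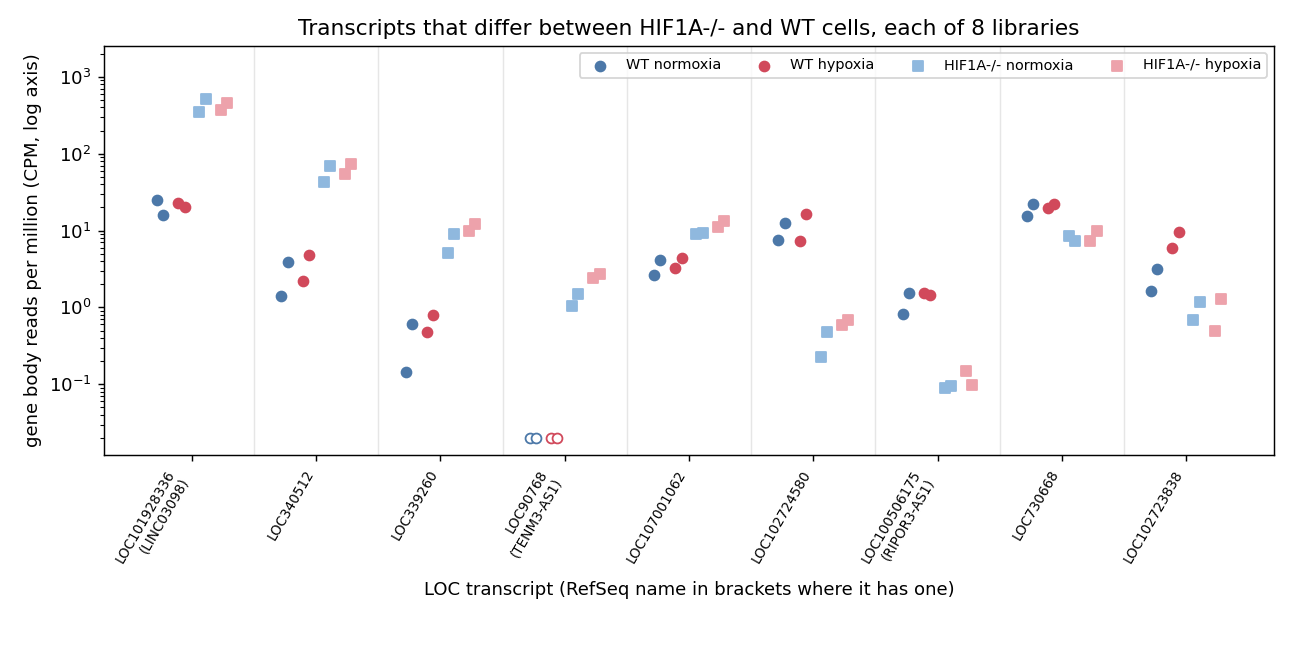
Gene body CPM (log axis) of 9 LOC transcripts that ranked highest for a difference between HIF1A-/- and WT cells, with each of the 8 libraries as a point, circles for WT and squares for HIF1A-/- cells, and open symbols at the foot of the plot for libraries with no read. LOC101928336 lies between 352 and 513 CPM in the 4 HIF1A-/- libraries and between 16.1 and 24.9 in the 4 WT libraries, and LOC90768 has no read in WT.

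Of the transcripts lower in HIF1A-/- cells, LOC102724580, a pseudogene on chromosome 9, had 7.58 and 12.5 CPM in WT normoxia and 7.21 and 16.4 in WT hypoxia, against 0.227, 0.473, 0.590 and 0.691 in the HIF1A-/- libraries. The difference in normoxia was -4.83 ± 0.56 (adjusted p = 0.00749). Its head-to-head partner AQP7P1, a pseudogene of an aquaglyceroporin, had a difference of -1.68 (adjusted p = 0.108, blocked 0.0141). LOC100506175 (RIPOR3-AS1), antisense to FAM65C, had 0.821, 1.54, 1.53 and 1.44 CPM in WT and 0.0909, 0.0946, 0.148 and 0.0987 in HIF1A-/- libraries (-3.58 ± 0.63, adjusted p = 0.0433). Its TSS region had 8.12 and 19.1 CPM in WT normoxia and no read in HIF1A-/- normoxia, at least 15.3-fold lower (adjusted p = 0.00766). Body and TSS were thus lower together. The body passed the filter only through WT libraries, so a difference between the lines was built in. The body call was lost without WT normoxia replicate 2, either HIF1A-/- normoxia library or either WT hypoxia library (adjusted p = 0.107 to 0.271).

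LOC730668 on chromosome 22 had 15.5, 22.2, 19.7 and 22.0 CPM in WT and 8.50, 7.33, 7.38 and 9.91 in HIF1A-/- libraries (-1.25 ± 0.24, adjusted p = 0.0623), a call lost without any WT library or either HIF1A-/- normoxia library (adjusted p = 0.123 to 0.470). Ranked next and not called without the block were LOC101930370 (GALNT7-DT, -0.65, adjusted p = 0.102, blocked 0.0118), LOC101927780 (LINC01303, -1.21, adjusted p = 0.119, blocked 0.00170) and LOC101928100 (KLRK1-AS1, -1.12, adjusted p = 0.136, blocked 0.00170). LINC01303 lies within 500 kb of HIF1A, the targeted gene. Its nearest row upstream on its strand is HIF1A-AS1, with a gap of 110387 bp. A local effect of the targeting was not tested. GALNT7, which encodes an enzyme that starts O-linked glycans and lies head-to-head with GALNT7-DT, differed by -0.67 (adjusted p = 0.17, blocked 0.0239). KLRK1-AS1 lies in a cluster of natural killer receptor genes, of which KLRC2, KLRC3 and KLRC4-KLRK1 were called in the same comparison.

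In hypoxia, several transcripts that had risen in WT cells stood lower in HIF1A-/- cells. LOC102723838 had 5.95 and 9.61 CPM in WT hypoxia and 0.492 and 1.28 in HIF1A-/- hypoxia (-3.15 ± 0.55, adjusted p = 0.0287), a call lost without WT hypoxia replicate 2 (adjusted p = 0.218) or HIF1A-/- hypoxia replicate 1 (0.17). SCIRT differed by -1.54 (adjusted p = 0.0455), IL12B-AS1 by -1.10 (0.0750), EPIC1 by -0.67 (0.0724) and CTDP1-DT by -0.64 (0.0980), and none of these 4 was called in normoxia without the block. All 4 calls were lost without WT hypoxia replicate 2 or HIF1A-/- hypoxia replicate 1. That of SCIRT was also lost without WT hypoxia replicate 1 (adjusted p = 0.103 to 0.316 over these 3 libraries), and that of IL12B-AS1 without HIF1A-/- hypoxia replicate 2 or either WT normoxia library (0.129 to 0.534 over these 5). EPIC1 lost it without any WT library or either HIF1A-/- hypoxia library (0.112 to 0.404), and CTDP1-DT without any single library (0.102 to 0.599), with RLE size factors (0.105) and without the filter (0.104). These comparisons share the WT hypoxia libraries with the WT response. LOC105371430, antisense to C17orf97, had 32.9 and 43.0 CPM against 17.4 and 22.0 (-0.96 ± 0.19, adjusted p = 0.0414), which was not called without WT hypoxia replicate 2 or either HIF1A-/- hypoxia library (adjusted p = 0.123 to 0.326).

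TSS regions gave fewer calls. In WT hypoxia none of 696 LOC regions passed without the block (background 0.046% higher and 0% lower), with 23 higher and 9 lower at an unadjusted p under 0.05 (3.30% and 1.29%, against 2.44% and 1.58% of all regions) and 1 higher by DESeq2 (0.144%, against 0.0986%). With the block 8 were higher and 1 lower (background 0.789% and 0.217%). The leading region was WDR5B-DT, head-to-head with WDR5B at 170 bp and past the end of FAM162A, a HIF-responsive mitochondrial gene whose body rose by 2.52 (adjusted p = 0.00537). WDR5B-DT had 136 and 149 CPM at the TSS in normoxic and 236 and 303 in hypoxic WT cells, against 193 and 198 in normoxic and 164 and 196 in hypoxic HIF1A-/- cells. The change was 0.95 ± 0.17 (adjusted p = 0.156, blocked 0.000147), while its body changed by 0.41. Reads that run on from FAM162A on the same strand could lie in this region, and their part was not tested.

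Next in the TSS ranking were SCIRT, given above, and LOC554223, with 0.451 and 0 CPM in WT normoxia and 4.63 and 7.04 in WT hypoxia (blocked adjusted p = 0.0222). The decreases with the smallest p were LOC101927189 (8.57 and 7.61 to 3.37 and 2.18 CPM, -1.52), LOC100506123 (APPAT, 0.902 and 0.525 to 0 and 0 CPM) and LOC105378269 (25.0 and 25.2 to 14.7 and 14.6 CPM, -0.75), all with an adjusted p of 0.922.

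Between the lines in normoxia, 2 LOC TSS regions were called higher in HIF1A-/- cells and 5 lower (background 0.224% and 0.434%), and with the block 19 and 16 (background 2.24% and 2.04%). The higher regions were LOC105372179, with 0.451 and 0.262 CPM in WT and 5.03 and 5.13 in HIF1A-/- normoxia (3.72 ± 0.76, adjusted p = 0.0715), and LOC339260, with no WT normoxia read and 2.16 and 3.03 CPM in HIF1A-/- normoxia, at least 3.55-fold higher (adjusted p = 0.0811). The LOC339260 region passed the filter only through HIF1A-/- libraries, so a difference between the lines was built in. LOC105372179 lies on the strand of DOK6 and within it, so its reads may belong to either. Its call was lost without any WT library or HIF1A-/- normoxia replicate 1 (adjusted p = 0.119 to 0.445), and that of LOC339260 without any WT library or HIF1A-/- hypoxia replicate 2 (adjusted p = 0.111 to 0.397), and both with DESeq2 (0.111 each). LOC440461 (ARHGAP27P2), with 3.61 and 5.25 against 19.0 and 12.4 CPM, missed the threshold (1.83, adjusted p = 0.102) but passed with the block (0.0056) and was the 1 region called higher by DESeq2 (0.0434).

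The lower TSS regions included RIPOR3-AS1, given above, and LOC101926935, with 5.41 and 6.82 CPM in WT normoxia and no read in HIF1A-/- normoxia, at least 6.88-fold lower (adjusted p = 0.0144, and 0.109 without WT normoxia replicate 2). KLRK1-AS1 followed, with 6.99 and 15.2 CPM against 1.44 and 0.233 (-3.85 ± 0.72, adjusted p = 0.0435), a call lost without WT normoxia replicate 2 (adjusted p = 0.347) or either WT hypoxia library (0.120 and 0.119). The other two, named after their values were seen, complete the 5 calls. LOC105369739 (LINC02450) was at least 6.12-fold lower (adjusted p = 0.0462, and 0.115 and 0.310 without either WT normoxia library), and LOC101928464 (ZNF433-AS1) had 30.9 and 31.2 CPM against 8.26 and 12.1 (-1.57 ± 0.30, adjusted p = 0.0552), a call lost without any WT library or HIF1A-/- normoxia replicate 1 (0.120 to 0.314). The regions of LOC101926935 and LOC105369739 passed the filter only through WT libraries, so a difference between the lines was built in. For ZNF433-AS1 and KLRK1-AS1 the body difference was -1.12 in each.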

How the data were processed

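PRO-seq libraries were analysed from counts that the authors deposited as 2 tables, 1 for TSS regions and 1 for gene bodies. Per the study's methods, reads were trimmed, aligned to GRCh37 with HISAT2 2.1.0, filtered with SAMtools 1.5 and counted by strand with featureCounts (Subread 1.6.2), with 2 sequencing runs merged per library and 1 start and 1 body per gene. Each TSS region spanned 551 bp and was not counted within the body. Choosing 1 start per gene means that transcription from another start of a LOC transcript is counted only in the body or not at all.

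CPM used the total of each whole table, and RPKM the body length. The 2 tables were fitted separately with edgeR 4.0.16 (R 4.3.3, TMM, quasi-likelihood test) over all rows above 0.5 CPM in at least 2 libraries, with 4 group means, Benjamini-Hochberg adjustment over 16686 bodies or 15212 TSS regions and an FDR of 10%. Log2 fold changes are given ± SE. The fit was tested on simulated data. Same-numbered libraries deviated together in all 6 pairs of groups (r = 0.481 to 0.789 for bodies and 0.216 to 0.518 for TSS regions), so the numbers were taken to pair libraries, and blocked values are given where they change a call. Alternatives were the block, DESeq2 1.42.0, RLE size factors, no filter on low counts and each library left out. Counting intervals and floors of 3 reads per library cover counting error only.

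The LOC transcripts, gene lists and tests were chosen with earlier results of these data known. Named transcripts are those with the smallest unadjusted p in each direction (8 higher and 5 lower for bodies in WT hypoxia, 3 and 3 in HIF1A-/- hypoxia, 5 and 3 for the difference of responses, 6 and 6 between lines in normoxia, 5 and 5 in hypoxia, 3 and 3 for each TSS comparison), the 5 densest bodies, the 3 highest and 3 lowest pausing indices, and their partner genes. Others are said to have been named after their values were seen. Current names and classes were taken by gene number from RefSeq's gene table, made for the GRCh38 assembly, in which 853 of 872 matched, and no coordinate was taken from it. Promoter sequences were read from the GRCh37 genome at the starts that the count tables give, and position classes were computed from the coordinates of those tables. A marker gene and some promoter sequences are not reported here.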

Additional observations from a re-analysis of the deposited data

Results flagged for a closer look

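LOC284930 (EPIC1) was the only LOC gene body whose hypoxia response differed between the lines by a test of the difference itself. In the edgeR fit with the replicate block, the WT response minus the HIF1A-/- response was 1.03 on the log2 scale (adjusted p = 0.0522). Without the block it was 1.02 (adjusted p = 0.548), and it was called in 2 of 12 alternatives.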

How the results depend on the processing

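Counts of called LOC transcripts depended on the fit. In WT hypoxia, 1 body higher became 37 with the block, 6 with DESeq2, 2 with RLE size factors and 2 without the filter, and 0 to 3 with a library left out. None lower became 1 with the block and 1 with DESeq2. The HIF1A-/- response had 0 calls in every fit. The difference of responses had 0 calls, 1 with the block and 1 with DESeq2. Between lines in normoxia, 5 higher became 22 with the block, 10 with DESeq2 and 3 to 6 with a library left out, and 3 lower became 66, 13 and 1 to 4, and 5 without the filter. In hypoxia, 9 higher became 51, 14 and 4 to 10, and 21 lower became 169, 42 and 1 to 29. The DESeq2 shares of LOC bodies in normoxia were 1.26% higher and 1.64% lower, against 1.79% and 1.98% of all bodies. In hypoxia they were 1.76% and 5.28%, against 3.12% and 4.73%. For TSS regions in WT hypoxia, 0 higher became 8 with the block, 1 with DESeq2, 4 without the filter and 0 to 1 with a library left out, and 0 lower became 1 with the block. Between lines, 2 higher TSS regions became 19 with the block, 1 with DESeq2 (neither of the 2), 12 without the filter and 0 to 12 with a library left out, and 5 lower became 16 with the block, 11 without the filter and 1 to 10. The cause was not tested, other than that the block lowered the common dispersion from 0.0376 to 0.0110 for bodies.

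The median log2 change of LOC bodies in WT hypoxia, 0.197, was 0.207 with DESeq2 and with RLE, 0.180 within replicate number 2 and 0.0197 to 0.396 with a library left out. That in HIF1A-/- cells, 0.119, was 0.159 within replicate number 1 and -0.0325 to 0.311 with a library left out. It was below 0 without HIF1A-/- hypoxia replicate 2 (-0.0325) and without HIF1A-/- normoxia replicate 1 (-0.0261). Between lines, the median in normoxia, -0.0899, was -0.261 to 0.0343 with a library left out, above 0 without HIF1A-/- normoxia replicate 1 (0.0343) and WT normoxia replicate 2 (0.0323). In hypoxia, -0.156 was -0.121 within replicate number 2 and -0.331 to -0.0142 with a library left out. The within-number values were added after seeing the data. With one total for both regions, the mean library median of the pausing index went from 41.0 to 8.71 in WT normoxia, 37.0 to 9.30 in WT hypoxia, 41.4 to 6.74 in HIF1A-/- normoxia and 41.6 to 7.34 in HIF1A-/- hypoxia, by construction of the scale. Of the values of named transcripts under alternatives, 629 kept direction and side of the threshold, 56 fell below it, 47 passed it and 0 reversed. Among the named transcripts in the comparisons described, the block changed no call other than those given beside the results. With the block, LOC TSS regions called higher in HIF1A-/- than in WT cells in hypoxia went from 4 to 45 (0.575% to 6.47%). Those called lower went from 8 to 82 (1.15% to 11.8%). Over all 15212 regions the counts went from 67 to 1136 higher and from 101 to 1060 lower. LOC regions with a larger WT response went from 0 to 1, and all such regions from 1 to 7. Depth limits 37.5% of LOC bodies, which held under 50 reads per library.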
